A study of Rattus norvegicus with 23 samples.

Results

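The 10 genes described here make a cell ready to copy its DNA, and they were followed in the livers of rats given 4 compounds. They are the 6 subunits of the replicative helicase, Mcm2 to Mcm7, the sliding clamp gene Pcna, the ribonucleotide reductase genes Rrm1 and Rrm2, and the thymidylate synthase gene Tyms. A gene was measured by the probe set that names it alone, and where there were several the one with the highest mean over the 23 samples was taken. Of the 10 genes, 9 had such a probe set, exactly 1 each, out of 14217 genes with a probe set of their own. Rrm2 had none, because both of its probe sets also name Rrm2l1, and these are described apart from the counts.

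Before a cell enters S phase, a ring made of the 6 MCM proteins is loaded onto each replication origin, a step called licensing, and the ring later unwinds the DNA ahead of the polymerases. PCNA encircles DNA and holds the polymerases on it, ribonucleotide reductase turns ribonucleotides into deoxyribonucleotides, and thymidylate synthase makes the thymidine nucleotide that only DNA uses. Most hepatocytes of an adult liver are quiescent and re-enter the cell cycle after injury or loss of tissue, and the genes of licensing and nucleotide supply are textbook targets of the E2F transcription factors in late G1.

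The livers, all left lateral lobes, came from male Sprague Dawley rats that were 6 to 8 weeks old at the start, were dosed by oral gavage once a day for 5 days and were killed 24 h after the last dose. Alpha-naphthylisothiocyanate (ANIT, 100 mg/kg), a bile duct toxicant, was compared with corn oil at 5 ml/kg, and methylenedianiline (MDA, 100 mg/kg), also a bile duct toxicant, with 35% ethanol at 2 ml/kg. A single in-life study held both acetaminophen (APAP) at 1000 mg/kg with its 2 ml/kg corn oil group and diclofenac (DCLF), a non-steroidal anti-inflammatory drug, at 10 mg/kg with its group on 10 ml/kg of water. Each of the 8 groups held 3 rats except water, which held 2, and the ANIT and MDA studies were run separately from that study and from each other. Values are log2 levels after robust multichip averaging (RMA), so a difference of 1 is a doubling, and a level of one gene cannot be set against that of another. In whole tissue, fewer cells of a type and less RNA per cell cannot be told apart.

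Sample medians lay between 8.95 and 9.02. Hepatocyte markers such as albumin were bright in all 23 samples, with group means over 11 markers from 14.26 (ANIT) to 14.78 (DCLF). On 3 arrays (corn oil 5 ml/kg replicate 2 and ANIT replicates 1 and 2) the highest value was 14.57 to 14.97, against 15.86 to 15.99 on the others. The 9 genes lay between 6.19 and 11.85, below that part of the scale. Leaving these 3 arrays out, a choice made after seeing the data, keeps 1 ANIT rat against 2 corn oil rats, with the spread taken from all 8 groups and the lone ANIT rat assumed to vary like the rest. That fit called 7 of the 9 genes under ANIT, but it has no replicate of ANIT and shows nothing about how these arrays affect the calls.

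Promoter windows from RefSeq (build GRCr8, 250 bases before to 50 bases after the annotated transcript start) were at hand for 8 of the 10 genes, all but Mcm4 and Rrm2. They are shown because E2F sites are the classical shared feature of these promoters. The 4 letter strings TTTCCCGC, TTTGGCGC, TTTCGCGC and TTTGCCGC, searched on both strands with overlaps allowed and called E2F-like here, occurred in 6 of the 8 windows, those of Mcm2, Mcm3, Mcm5, Mcm6, Mcm7 and Tyms. Of all 33469 windows, 2.14% held one, and of the 13242 windows of genes measured here, 3.51%. The stretches of 80 bases printed here run 5′ to 3′ on the strand of the gene, with the E2F-like matches in capitals.
Mcm2: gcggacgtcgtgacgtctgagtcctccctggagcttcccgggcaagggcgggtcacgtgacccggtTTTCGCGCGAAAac
Mcm3: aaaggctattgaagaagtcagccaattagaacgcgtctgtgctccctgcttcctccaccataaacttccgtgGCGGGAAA
Mcm5: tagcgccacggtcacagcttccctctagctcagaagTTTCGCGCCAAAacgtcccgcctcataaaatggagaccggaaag
Mcm6: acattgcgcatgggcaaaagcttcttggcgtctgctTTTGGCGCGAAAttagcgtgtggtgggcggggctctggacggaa
Mcm7: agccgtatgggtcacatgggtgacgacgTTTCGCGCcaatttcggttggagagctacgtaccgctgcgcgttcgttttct
Tyms: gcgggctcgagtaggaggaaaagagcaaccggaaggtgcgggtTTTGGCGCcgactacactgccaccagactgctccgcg

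The stretches lie at chr4:122918095-122918174 (minus strand, Mcm2), chr9:30733745-30733824 (minus, Mcm3), chr19:13488564-13488643 (plus, Mcm5), chr13:42404448-42404527 (minus, Mcm6), chr12:22163179-22163258 (minus, Mcm7) and chr9:120776084-120776163 (minus, Tyms). In the Mcm2, Mcm5 and Mcm6 stretches a match on each strand overlaps the other, so that the capitals form a run flanked by TTT and AAA. The matches began 14 and 10 bases before the start in Mcm2, 213 and 209 bases before it in Mcm5, and 139 and 135 bases before it in Mcm6. The Mcm7 stretch holds a match 52 bases and the Tyms stretch 1 match 37 bases before the start, and the match printed for Mcm3 begins 6 bases before it. Outside the printed stretches, Mcm5 held another match 8 bases before the start, Mcm7 another 233 bases before it and Mcm3 another from base 14 after it. The letters CCAAT, the core bound by NF-Y, occurred in 6 of the 8 windows, 3 times each in Mcm3, Mcm5 and Mcm7, and in 37.5% of all windows. The letters TTTGAA, the core of the cell cycle homology region, occurred in 1 of the 8 windows, that of Mcm2, and in 18.3% of all windows. These are matches of letters, and binding was not measured.

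**Figure D1:**
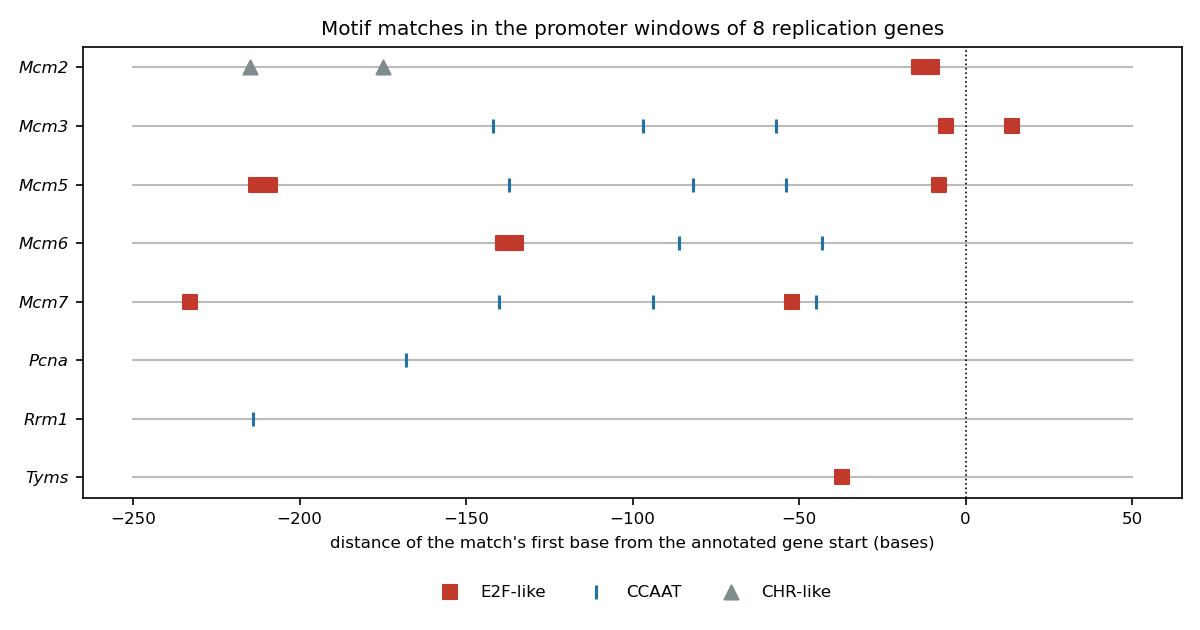
Matches of 3 letter motifs in the promoter windows of 8 replication genes, one line per gene, with the horizontal axis giving the distance in bases of each match's first base from the annotated transcript start (dotted line). Squares are E2F-like matches, bars CCAAT and triangles TTTGAA. E2F-like matches stand in 6 windows, and the Pcna and Rrm1 windows hold 1 CCAAT match each.

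ANIT raised 7 of the 9 genes: Mcm2, Mcm3, Mcm4, Mcm5, Mcm6, Rrm1 and Tyms. A gene was called when its limma p-value, adjusted by Benjamini-Hochberg over all probe sets, was under 0.05 and its fold change over 1.5. By this rule 3.84% of all genes were called higher and 3.38% lower. The 2 genes not called, Mcm7 and Pcna, passed the adjusted p but not the fold. The median change of the 9 genes was 0.88 on the log2 scale, a fold of 1.84, beside -0.02 over all genes. In each of the 9 genes every ANIT rat lay above every corn oil rat, which was so for 14.1% of all genes.

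The largest changes among the 9 genes were in Mcm6 and Mcm4, subunits of the helicase core. Mcm6 stood at 6.71, 7.21 and 6.81 in the corn oil rats and at 8.75, 8.40 and 9.31 in the ANIT rats, a log2 change of 1.91 ± 0.23 (SE, n = 3 and 3, limma adjusted p = 0.00289). Mcm4 stood at 7.20, 7.41 and 7.10 with corn oil and at 8.94, 8.85 and 8.76 with ANIT, a log2 change of 1.61 ± 0.10 (SE, adjusted p = 0.000255). The Mcm6 levels of the ANIT rats were spread over 0.91 and those of Mcm4 over 0.18, and in both genes the lowest ANIT rat was more than 1 log2 unit above the highest corn oil rat. Both probe sets were dim, with 8.55% of genes having a lower mean level than Mcm6 and 11.3% a lower one than Mcm4.

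The other 4 helicase subunits changed less. Mcm2, at the gate of the ring, was 9.07, 9.15 and 9.07 with corn oil and 10.06, 9.92 and 9.96 with ANIT, a log2 change of 0.88 ± 0.08 (SE, adjusted p = 0.000838). Mcm5, which closes that gate with Mcm2, was 9.45, 9.48 and 9.59 with corn oil and 10.21, 10.41 and 10.31 with ANIT, a log2 change of 0.80 ± 0.09 (SE, adjusted p = 0.00175). In both genes the ANIT rats lay close together and well apart from the controls. Mcm3 was 9.06, 9.14 and 9.18 with corn oil and 10.08, 9.55 and 10.22 with ANIT, a log2 change of 0.83 ± 0.16 (SE, adjusted p = 0.0191). ANIT replicate 2 was nearer to the controls than to the other ANIT rats for Mcm3, and the call was lost in 4 of the 6 fits that left out 1 rat (corn oil replicate 1, 2 or 3, or ANIT replicate 1), with log2 changes between 0.69 and 1.02 over the 6. Mcm7 was 10.63, 10.51 and 10.57 with corn oil and 11.18, 11.09 and 10.96 with ANIT, a log2 change of 0.51 ± 0.09 (SE, adjusted p = 0.0108), a fold of 1.42. Its groups did not overlap, and its fold stayed under the threshold.

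The clamp gene Pcna was the brightest of the 9 probe sets and had the smallest change of the 9 under ANIT. It was 11.43, 11.24 and 11.18 with corn oil and 11.66, 11.84 and 11.85 with ANIT, a log2 change of 0.50 ± 0.10 (SE, adjusted p = 0.0182), a fold of 1.41. The lowest ANIT rat was 0.23 above the highest corn oil rat.

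Both nucleotide supply genes about doubled. Rrm1, the large subunit of ribonucleotide reductase, was 9.52, 9.55 and 9.41 with corn oil and 10.30, 10.73 and 10.50 with ANIT, a log2 change of 1.01 ± 0.12 (SE, adjusted p = 0.00233). Tyms was 7.56, 7.14 and 7.35 with corn oil and 8.45, 8.30 and 8.40 with ANIT, a log2 change of 1.03 ± 0.11 (SE, adjusted p = 0.00206). The groups lay far apart in both genes, and for Tyms the spread was wider among the controls than among the treated rats.

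**Figure D2:**
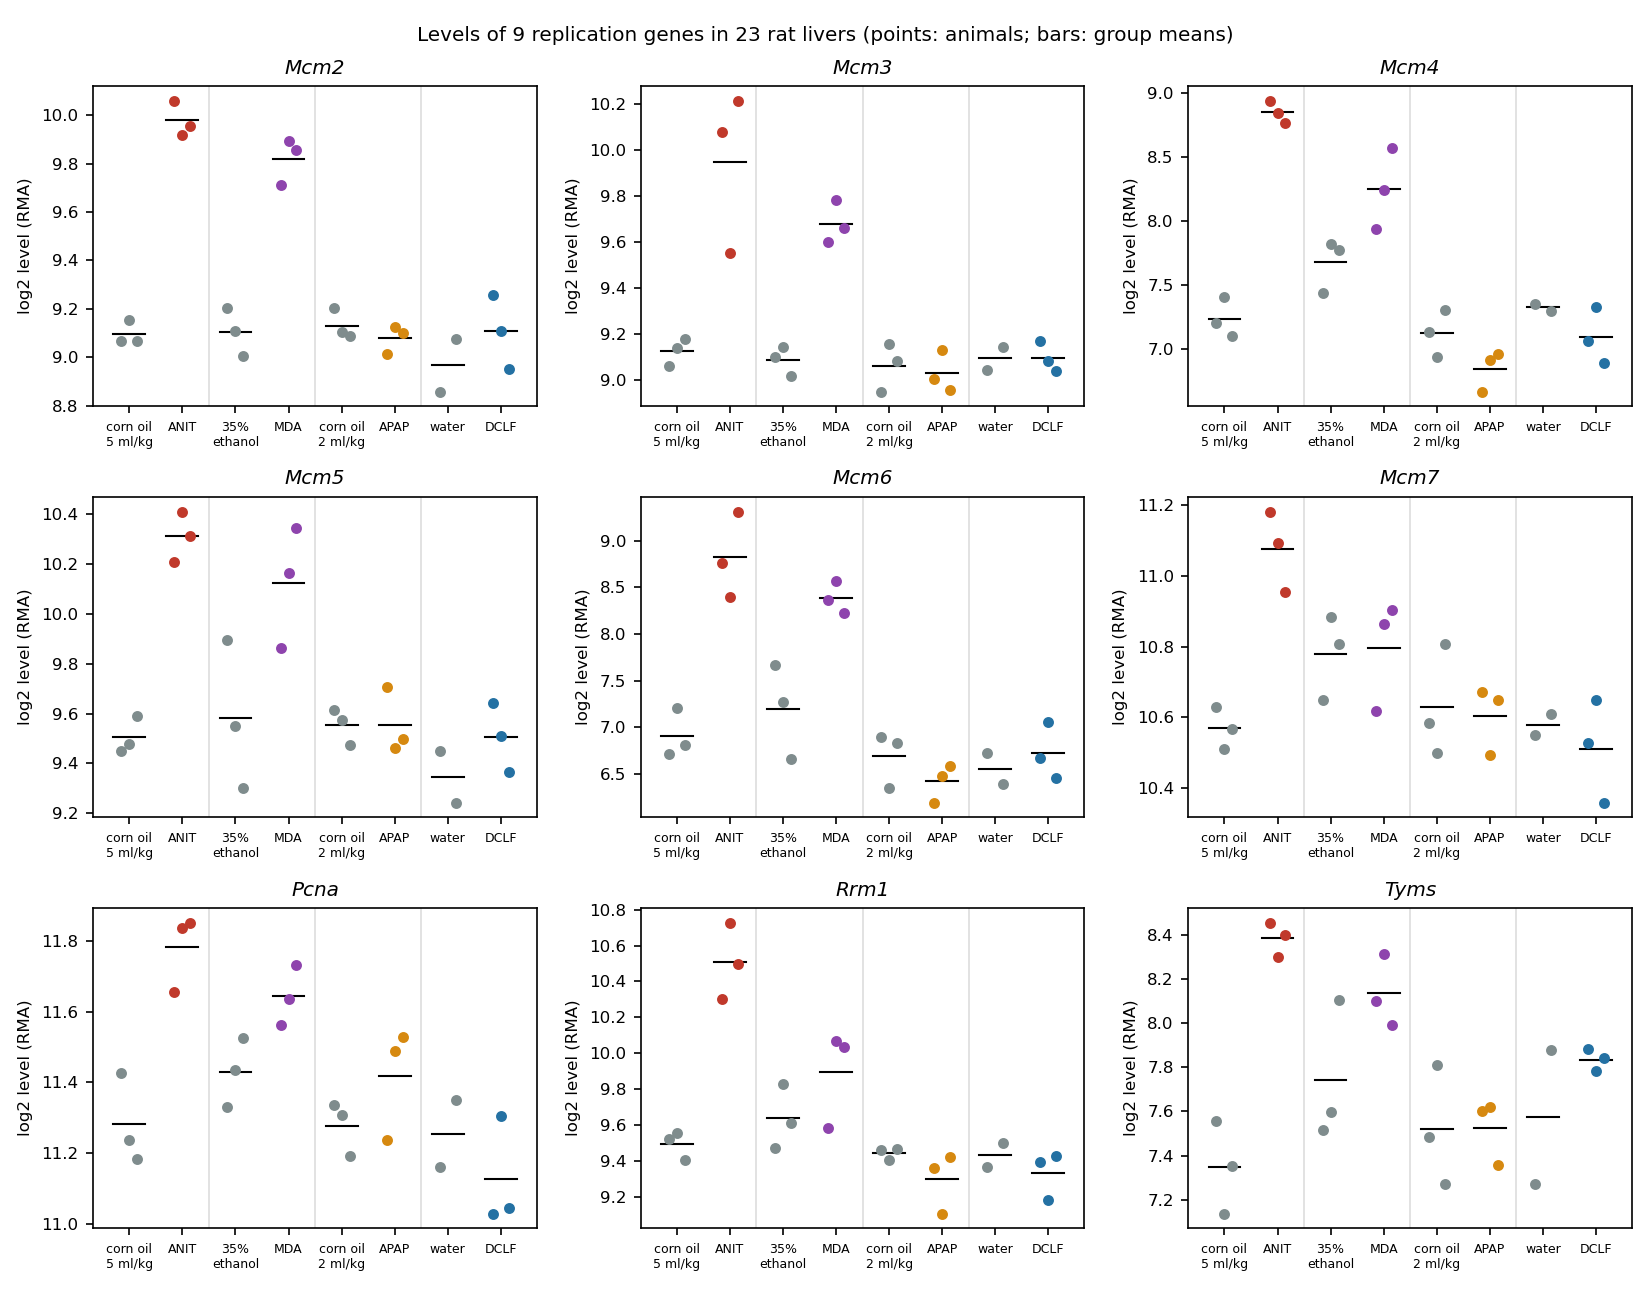
Log2 levels (RMA) of the 9 replication genes in 23 rat livers, one panel per gene with its own vertical scale, each point a rat and each bar a group mean, with every compound beside its own vehicle (grey). All 3 ANIT points lie above all 3 corn oil 5 ml/kg points in every panel, while MDA is separated from ethanol in 5 panels and APAP and DCLF from their vehicles in none.

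The small subunit of ribonucleotide reductase, Rrm2, could be read only together with Rrm2l1. The brighter of the 2 shared probe sets was 8.50 to 8.63 in the 5 ml/kg corn oil rats and 10.96 to 12.16 in the ANIT rats, a log2 change of 3.04 ± 0.26 (SE, adjusted p = 0.000826). The dimmer one was 5.72 to 5.82 with corn oil and 6.99 to 8.83 with ANIT, a log2 change of 2.18 ± 0.39 (SE, adjusted p = 0.0130). Both were called and neither overlapped between the groups, and how the signal divides between Rrm2 and Rrm2l1 is not known from them.

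Under MDA, 3 of the 9 genes were called higher, all of them helicase subunits: Mcm6, Mcm2 and Mcm3. Of all genes 4.9% were called higher and 4.23% lower. The median change of the 9 genes was 0.54 on the log2 scale, a fold of 1.46, beside 0.00 over all genes, and all 9 values were above 0. In 5 genes (Mcm2, Mcm3, Mcm4, Mcm6 and Pcna) every MDA rat lay above every ethanol rat, which was so for 17.1% of all genes.

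Mcm6 again had the largest change of the 9, from 7.66, 7.27 and 6.66 in the ethanol rats to 8.37, 8.57 and 8.22 in the MDA rats, a log2 change of 1.19 ± 0.23 (SE, n = 3 and 3, adjusted p = 0.0122). Mcm2 went from 9.20, 9.11 and 9.01 to 9.71, 9.89 and 9.86, a log2 change of 0.72 ± 0.09 (SE, adjusted p = 0.00254). Mcm3 went from 9.10, 9.14 and 9.02 to 9.60, 9.78 and 9.66, a log2 change of 0.59 ± 0.09 (SE, adjusted p = 0.00422), a fold of 1.51. The Mcm3 value lies just over the fold threshold, and its call was lost without ethanol replicate 3 (log2 change 0.56) or MDA replicate 2 (0.54).

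Mcm4 and Mcm5 just missed both thresholds. Mcm4 was 7.44, 7.83 and 7.78 with ethanol and 7.94, 8.24 and 8.57 with MDA, a log2 change of 0.57 ± 0.17 (SE, adjusted p = 0.0650), and it was called without MDA replicate 1 (0.72). Mcm5 was 9.90, 9.55 and 9.30 with ethanol and 9.86, 10.17 and 10.35 with MDA, a log2 change of 0.54 ± 0.17 (SE, adjusted p = 0.0799), and it was called without ethanol replicate 1 (0.70). The ethanol rat with the highest Mcm5 stood above the lowest MDA rat.

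The remaining 4 genes were not called under MDA. Tyms had a log2 change of 0.39 ± 0.16 (SE, adjusted p = 0.173), with 1 ethanol rat at 8.11 beside MDA rats at 7.99 to 8.31. Rrm1 had a log2 change of 0.26 ± 0.15 (SE, adjusted p = 0.353), with MDA replicate 1 at 9.58 inside the ethanol range of 9.47 to 9.83 and the other 2 MDA rats above it. Pcna had a log2 change of 0.21 ± 0.09 (SE, adjusted p = 0.188), with ethanol rats up to 11.52 and MDA rats from 11.56. Mcm7 had a log2 change of 0.02 ± 0.11 (SE, adjusted p = 0.960), and the 2 groups covered nearly the same range, 10.65 to 10.88 and 10.62 to 10.90. The probe sets shared by Rrm2 and Rrm2l1 were not called either, with log2 changes of 0.60 ± 0.35 and -0.01 ± 0.15 (SE).

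**Figure D3:**
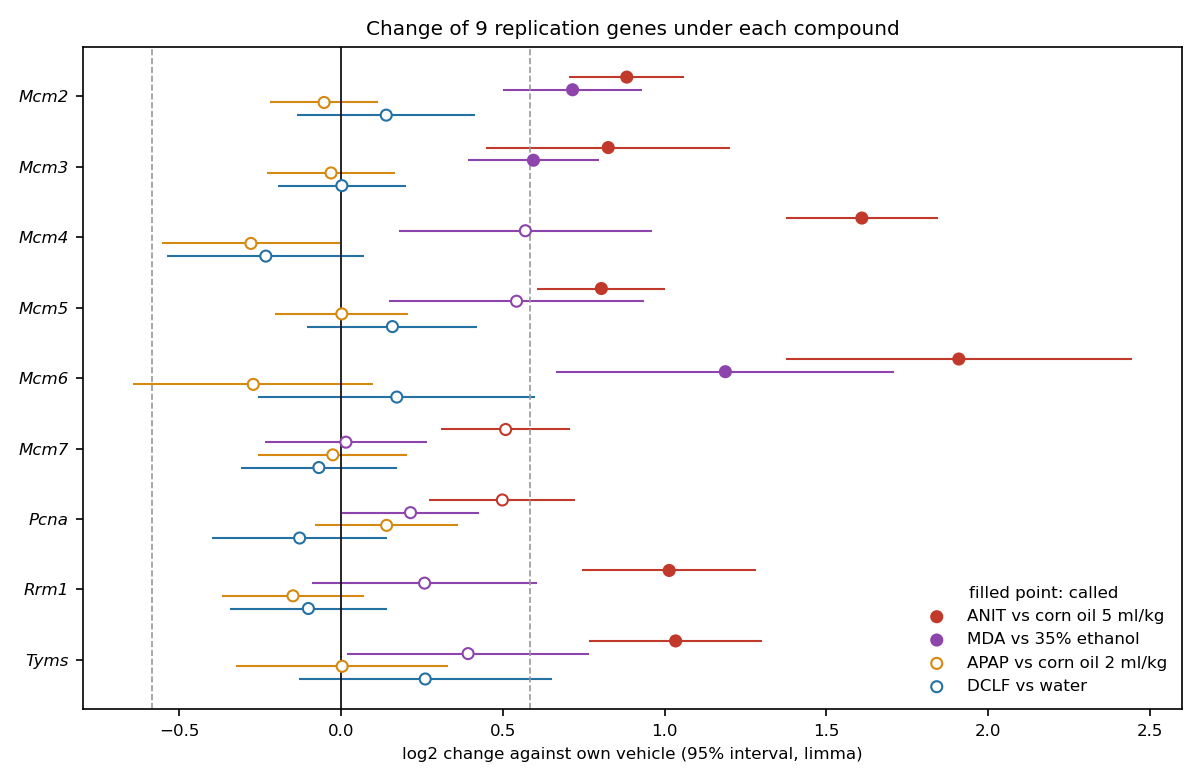
Log2 change of each of the 9 genes against the vehicle of its own study for ANIT, MDA, APAP and DCLF, with 95% intervals from limma; filled points were called and the dashed lines mark the fold threshold of 1.5 in either direction. ANIT has 7 filled points and MDA 3, and the APAP and DCLF values lie between -0.28 and 0.26.

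None of the 9 genes was called under APAP or DCLF. With APAP, 0 of 9 were called by limma, 1 (Mcm4) had an unadjusted p under 0.05, and the log2 changes ran from -0.28 ± 0.12 (SE) in Mcm4 to 0.14 ± 0.10 in Pcna. Over all genes 0.239% were called higher and 0.0844% lower, and 1655 of 14217 had an unadjusted limma p under 0.05. No gene of the 9 was separated from its vehicle, beside 10.4% of all genes lying wholly above it and 7.09% wholly below it. The 95% intervals of the 9 changes lay within -0.64 and 0.36, and the ANIT median of 0.88 lies outside them. APAP rats had 6.67, 6.92 and 6.96 for Mcm4, of which only the last exceeded the lowest of the corn oil values of 7.14, 6.94 and 7.31.

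With DCLF, 0 of 9 genes were called by limma, and 0 had an unadjusted p under 0.05. The same limma rule called 0% of all genes in either direction, and 1684 of 14217 had an unadjusted limma p under 0.05. The log2 changes ran from -0.23 ± 0.13 (SE, n = 3 and 2) in Mcm4 to 0.26 ± 0.17 in Tyms, and the 95% intervals lay within -0.54 and 0.65. Tyms was 7.88, 7.78 and 7.84 in the DCLF rats and 7.27 and 7.88 in the water rats, so its sign rested on 1 water rat and turned to -0.04 without water replicate 1. No gene of the 9 was separated from water, beside 10% of all genes wholly above it and 20.8% wholly below it.

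Corn oil at 2 ml/kg against water gave the size of differences between vehicles within 1 study. Again 0 of 9 genes were called by limma, none had an unadjusted p under 0.05, and 0% of all genes were called. The log2 changes ran from -0.20 ± 0.12 (SE) in Mcm4 to 0.21 ± 0.09 in Mcm5. In 2 of the 9 genes, Mcm2 and Mcm5, every corn oil rat lay above every water rat, by 0.012 and 0.022, which was so for 7.92% of all genes. This comparison shares its corn oil rats with the APAP comparison and its water rats with the DCLF comparison.

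The ethanol rats, from a separate study, had higher mean levels of most of these genes than the other vehicle rats. For 8 of the 9 genes the ethanol mean was above the mean of the other 8 vehicle rats, by up to 0.46 in Mcm4 and in Mcm6, and the exception was Mcm3. Mcm4 was the 1 gene of the 9 in which every ethanol rat (7.44 to 7.83) was above every other vehicle rat (6.94 to 7.41). The brighter probe set of Rrm2 and Rrm2l1 showed the same order, 9.42 to 10.19 with ethanol and 8.36 to 8.80 with the other vehicles. The shares of all genes with a higher ethanol mean or with such a separation were not computed. The counts are therefore not read as particular to the 9 genes. Averaged over the 9 genes, each taken as its deviation from its own mean over 23 samples, the ethanol rats lay between -0.09 and 0.01 and the other vehicle, APAP and DCLF rats between -0.36 and -0.18. The MDA rats lay between 0.31 and 0.55 and the ANIT rats between 0.72 and 0.85 on this scale. The 4 ranges do not overlap, but vehicle and study cannot be told apart here, and no test of these levels was run across studies.

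Set against each other, the ANIT effect was larger than the MDA effect in all 9 genes by value and in 1 gene, Mcm4, by the test of the difference. For Mcm4 the difference between the log2 changes was 1.04 ± 0.21 (SE, limma adjusted p = 0.0392), while 0.71% of all genes were called higher. Mcm4 group means were 7.24 (corn oil 5 ml/kg) and 8.85 (ANIT), and 7.68 (ethanol) and 8.25 (MDA). Each effect was taken against the vehicle of its own study. Whether the higher Mcm4 level of the ethanol rats bears on the difference was not tested. The call for Mcm4 was lost in 10 of the 12 fits that left out 1 rat (all but those without ethanol replicate 1 or MDA replicate 3), where the difference ran from 0.89 to 1.20. The nucleotide supply genes had differences of 0.76 (95% interval 0.31 to 1.20, adjusted p = 0.110) in Rrm1 and 0.64 (0.17 to 1.11, adjusted p = 0.219) in Tyms. Rrm1 passed when all 8 groups shared 1 estimate of the spread (adjusted p = 0.0353). Mcm6 had a difference of 0.72 (95% interval -0.06 to 1.51) and Mcm7 one of 0.49 (0.19 to 0.80, adjusted p = 0.130).

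The smallest differences between the effects were in Mcm2 at 0.17 (95% interval -0.08 to 0.42), Mcm3 at 0.23 (-0.19 to 0.65) and Mcm5 at 0.26 (-0.19 to 0.71). Pcna lay near them at 0.28, with an upper bound of 0.57. Both shared probe sets of Rrm2 and Rrm2l1 differed between the compounds, by 2.44 ± 0.49 (SE, adjusted p = 0.0361) and 2.19 ± 0.46 (adjusted p = 0.0436).

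The ANIT effect exceeded the APAP effect in 7 of the 9 genes, those called under ANIT, with 3.18% of all genes called higher. The differences of these 7 ran from 0.80 ± 0.12 (SE, adjusted p = 0.00268) in Mcm5 to 2.18 ± 0.31 (adjusted p = 0.00181) in Mcm6. The Mcm3 call (0.86 ± 0.20, adjusted p = 0.0264) was lost in 8 of the 12 fits that left out 1 rat (any 5 ml/kg corn oil rat, ANIT replicate 1, 2 ml/kg corn oil replicate 2 or 3, or APAP replicate 1 or 3), with differences between 0.72 and 1.06 over the 12. Mcm7 differed by 0.53 (adjusted p = 0.0380), under the fold threshold, and Pcna by 0.36 (95% interval 0.06 to 0.66, adjusted p = 0.179). The comparison shares its ANIT and 5 ml/kg corn oil rats with the others that involve ANIT.

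**Figure D4:**
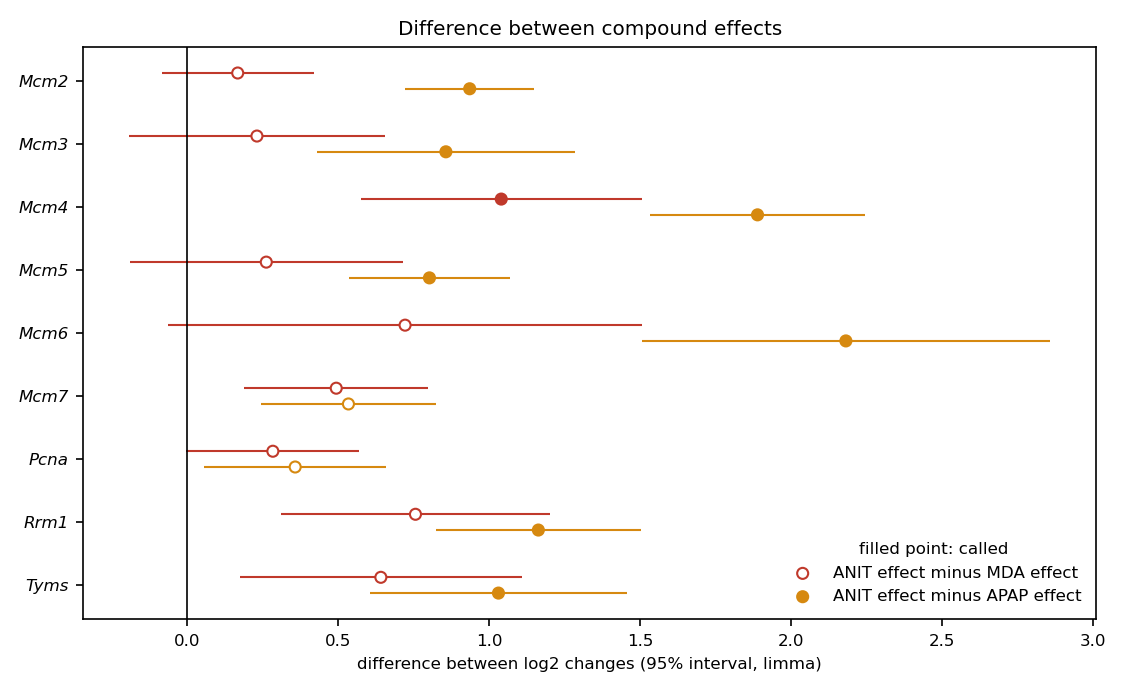
Difference between the log2 changes under 2 compounds for each of the 9 genes, ANIT minus MDA and ANIT minus APAP, with 95% intervals from limma; filled points were called. Mcm4 is the 1 filled point for ANIT minus MDA, and 7 genes are filled for ANIT minus APAP.

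The neighbours of the 9 genes in the pathway were read from 6 lists of 147 genes, of which 131 had a probe set of their own. ANIT raised 35 of the 131 and lowered 2, and MDA raised 10 and lowered 3. With APAP 0 of the 131 were called by limma (19 at an unadjusted p under 0.05), and with DCLF 0 (13 at an unadjusted p under 0.05). Of all 14217 genes, 1655 had an unadjusted limma p under 0.05 with APAP and 1684 with DCLF. The percentages of all genes called, given with each compound, apply to the counts of called genes and not to those at an unadjusted p.

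Among genes of origin licensing and firing, ANIT raised 3 of 20 and lowered 1. Topbp1, which helps start the helicase, rose by 1.16 ± 0.21 on the log2 scale (SE, adjusted p = 0.0133), Cdt1, which brings the MCM ring to origins, by 0.81 ± 0.08, and Gins4, part of the active helicase, by 0.63 ± 0.13. Orc4, a subunit of the origin recognition complex, fell by 0.72 ± 0.13 under ANIT and by 0.71 ± 0.15 under MDA, where it was the 1 gene of the list that was called. The list's median log2 change was 0.23 under ANIT and 0.13 under MDA.

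Of 33 genes of the replication fork, 10 rose under ANIT and 2 under MDA, with medians of 0.36 and 0.13. Pclaf, a PCNA-binding factor, rose by 1.84 ± 0.21 under ANIT and by 1.13 ± 0.22 under MDA. Uhrf1, which guides maintenance of DNA methylation, rose by 1.62 ± 0.11 and 1.10 ± 0.13. Those 2 were the ones called under MDA. Prim1, the primase subunit, rose by 1.30 ± 0.16 under ANIT, Rpa2, which coats single strands, by 0.94 ± 0.09, and Timeless, a fork protection factor, by 0.93 ± 0.12. In Prim1 and Timeless the ANIT effect was larger than the MDA effect, by 1.14 ± 0.24 (adjusted p = 0.0404) and 1.02 ± 0.19 (adjusted p = 0.0273).

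Nucleotide supply beyond Rrm1 and Tyms was read from 2 lists. Of 15 genes of deoxynucleotide and folate supply, 3 rose under ANIT, namely the nucleoside diphosphate kinases Nme2 (0.85 ± 0.08) and Nme1 (0.80 ± 0.10) and the thymidine kinase Tk1 (0.81 ± 0.14). Under MDA limma called 0 of the 15, with a median log2 change of 0.09 and a lowest adjusted p of 0.0365, and the list's median under ANIT was 0.10. Of 15 genes of de novo purine and pyrimidine synthesis, both CTP synthases, Ctps1 (0.98 ± 0.15) and Ctps2 (0.74 ± 0.16), rose under ANIT. Under MDA Ctps2 rose by 0.64 ± 0.12 and Ppat, the first committed enzyme of purine synthesis, fell by 0.62 ± 0.15. The medians of that list were 0.16 under ANIT and 0.05 under MDA. With APAP its median was 0.34, with 12 of 15 genes above 0, 0 called by limma and 7 at an unadjusted p under 0.05. Ctps1 had a log2 change of 1.10 ± 0.20 with APAP (SE, adjusted p = 0.105). Its ANIT effect minus its APAP effect was -0.12 ± 0.28 (SE, adjusted p = 0.868).

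Of 30 regulators of the G1 to S step, 3 rose and 1 fell under each of the 2 compounds. Over all genes 3.84% were called higher and 3.38% lower under ANIT, and 4.9% and 4.23% under MDA. The 1 of 30 that fell is near the shares called lower. Myc rose by 1.20 ± 0.23 under ANIT and by 0.86 ± 0.23 under MDA, and Rbl1, a pocket protein, by 1.13 ± 0.16 and 0.68 ± 0.13. Rb1, the retinoblastoma protein that holds E2F factors in check, fell by 1.09 ± 0.17 and 0.89 ± 0.21. The third gene to rise was the cyclin D gene Ccnd1 under ANIT (0.81 ± 0.15) and Ccnd2 under MDA (0.84 ± 0.18). The difference between the compounds was 0.47 ± 0.27 (adjusted p = 0.574) for Ccnd1 and -0.82 ± 0.22 (adjusted p = 0.0987) for Ccnd2, so neither passed. With APAP, where 0 of the 30 were called, Myc had a log2 change of 1.06 ± 0.33 (SE, adjusted p = 0.335). Rbl1 had -0.24 ± 0.20 and Rb1 -0.21 ± 0.18 with APAP.

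The E2F genes themselves were not called under either compound. Of the 7 measured, E2f8 (0.79 ± 0.24, adjusted p = 0.0815) and E2f1 (0.56 ± 0.16, adjusted p = 0.0739) had the largest values under ANIT, and E2f1 (0.44 ± 0.13, adjusted p = 0.0698) and E2f8 (0.28 ± 0.08, adjusted p = 0.0650) under MDA. The others, E2f2, E2f4, E2f5, E2f6 and E2f7, lay between 0.04 and 0.38 under ANIT and between -0.18 and 0.12 under MDA. Cyclin E gene Ccne1 had a value of 0.43 ± 0.09 under ANIT (adjusted p = 0.0197), under the fold threshold, and 0.17 under MDA, while Ccne2 was at 0.08 and -0.05 and Ccnd3 at -0.02 and -0.07. Of the 7 inhibitors of cyclin-dependent kinases, Cdkn1a came closest to a call, at 0.57 ± 0.13 under ANIT (adjusted p = 0.0281) and 0.49 ± 0.16 under MDA (adjusted p = 0.0900). Cdkn1b, Cdkn1c, Cdkn2a, Cdkn2b, Cdkn2c and Cdkn2d lay between -0.53 and 0.26 under ANIT and between -0.21 and 0.24 under MDA.

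The last list covered later steps of the cycle. Of 18 markers of late S phase to mitosis, 14 rose under ANIT with a median of 1.25, and 4 rose under MDA with a median of 0.53. Cyclin A2 (Ccna2) rose by 3.19 ± 0.31 and 1.72 ± 0.35, and the proliferation marker Mki67 by 3.15 ± 0.26 and 1.93 ± 0.39. Cdk1 rose by 2.63 ± 0.22, Ccnb2 by 2.42 ± 0.24 and Bub1 by 2.15 ± 0.31 under ANIT, and Aurkb by 0.78 ± 0.16 and Kif11 by 0.63 ± 0.10 under MDA. Top2a was the 1 gene of this list that differed between the compounds (1.45 ± 0.29, adjusted p = 0.0345).

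**Figure D5:**
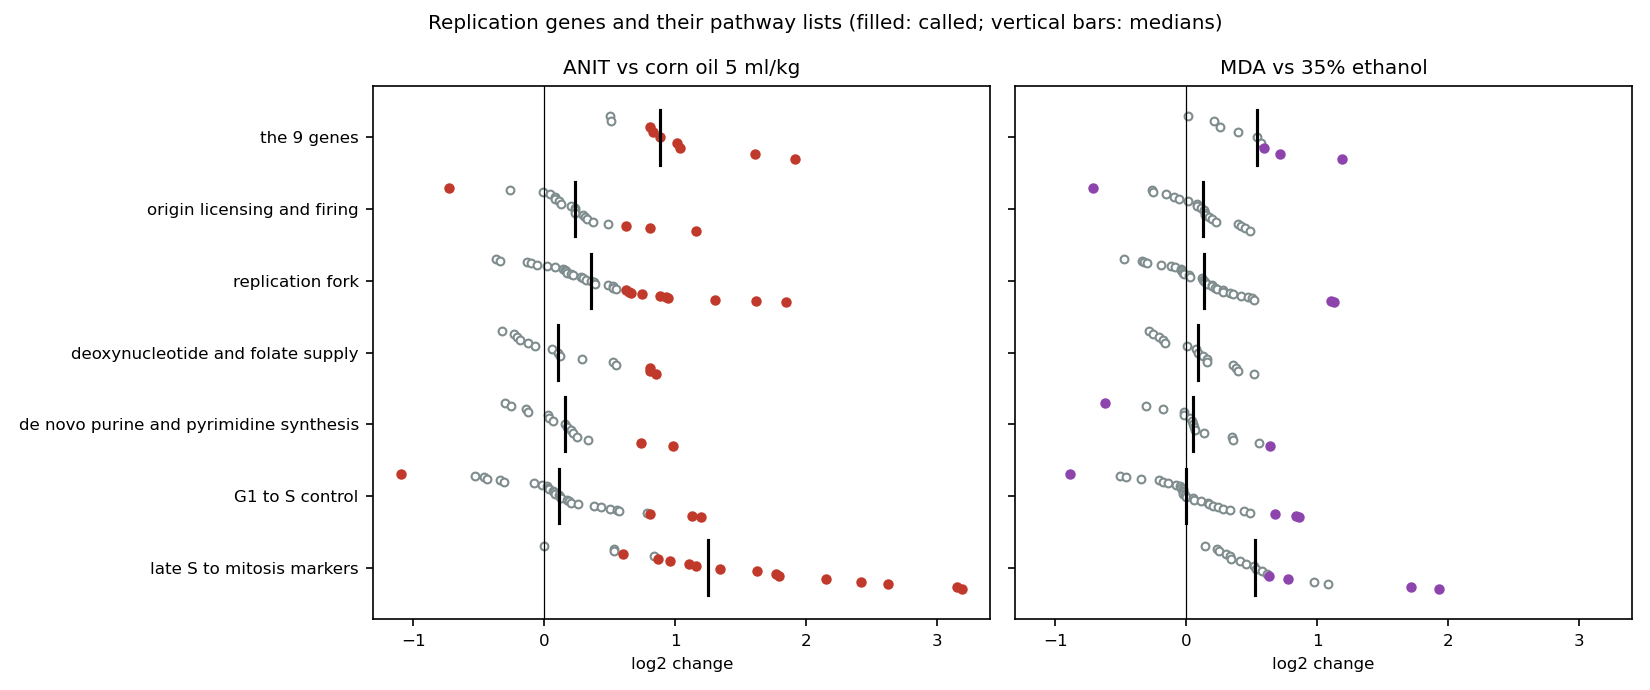
Log2 changes of the 9 genes and of the 131 measured genes in 6 pathway lists under ANIT (left) and MDA (right), each point a gene, filled where called, with vertical bars at the medians. The medians of the 9 genes are 0.88 and 0.54, those of the late S to mitosis list 1.25 and 0.53, and those of the other lists are at most 0.36.

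Markers of other cell types moved in the same livers. Beside the ANIT values of the 9 genes, 3 of 12 cholangiocyte markers rose, Epcam by 2.16 ± 0.16, and the mean log2 level over that list was 8.18 to 8.26 in the corn oil rats and 8.57 to 9.08 in the ANIT rats. Of 13 markers of stellate cells and fibroblasts, 5 rose and 1 fell, with list means of 9.51 to 9.67 and 9.96 to 10.50, and 3 of 14 macrophage markers rose, with list means of 10.69 to 10.82 and 10.76 to 11.14. Of 11 hepatocyte markers 1 rose, but only 3 had values above 0, and the list's median log2 change was -0.24. These bright probe sets lie near the top of the range, which was lower on 3 arrays of this comparison. Of the remaining lists, 1 of 15 lymphocyte, 2 of 9 endothelial and 2 of 9 erythroid markers fell. Limma called 0 of 8 neutrophil markers (2 at an unadjusted p under 0.05, beside 3979 of all 14217 genes). Their part in the changes of the 9 genes was not tested.

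Beside the MDA values, 11 of 14 macrophage markers rose, Gpnmb by 2.04 ± 0.18, with list means of 10.28 to 10.55 in the ethanol rats and 11.30 to 11.54 in the MDA rats. Of the stellate and fibroblast markers 7 rose and 2 fell (list means 9.09 to 9.53 and 9.85 to 10.28), and 4 of 15 lymphocyte, 3 of 12 cholangiocyte and 1 of 8 neutrophil markers rose. Of 11 hepatocyte markers 4 fell, with a list median log2 change of -0.26, and 2 of 9 erythroid markers fell. The part of these cells in the changes of the 9 genes was not tested here either.

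The 9 genes followed one another across the samples, mostly through the differences between groups. Over 23 samples Pearson's r of their 36 pairs ran from 0.61 to 0.93 with a median of 0.80. After each group's mean was subtracted, r ran from -0.57 between Mcm6 and Tyms to 0.70 between Mcm4 and Mcm7, with a median of 0.09 and 21 of the 36 pairs above 0. The points share arrays and normalization, and the second set of values describes 2 or 3 rats a group.

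Outside the 10 genes, the 5 whose level followed the mean of the 9 genes most closely over 23 samples were Arhgap11a (r = 0.973), Timp1, an inhibitor of metalloproteinases (0.972), the licensing factor Cdt1 (0.970), the acute-phase protein Lcn2 (0.967) and the tubulin gene Tubb6 (0.966). Within groups these values were 0.44 for Arhgap11a, 0.52 for Timp1, 0.59 for Cdt1, 0.21 for Lcn2 and 0.07 for Tubb6. Lcn2 had a log2 change of 5.36 ± 0.50 under ANIT and 3.62 ± 0.13 under MDA, larger than those of the 9 genes.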

How the data were processed

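The log2 values were those the authors deposited, made from Affymetrix rat genome arrays (biotin label, 1 colour) by RMA in Array Studio; intensities and depth do not enter, and precision is set by the number of rats. Probe sets were tied to genes by the platform annotation and renamed by gene ID from RefSeq (GRCr8). Of 31042 probe sets (57 Affymetrix controls left out), 20826 carried 1 gene. In the titles of the 3 corn oil 5 ml/kg samples the leading animal numbers differ and the closing one is shared, and the leading ones were taken as the rats.

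Each compound was compared with its own vehicle by limma 3.58.1 in R 4.3.3 on those groups alone, two-sided, with Benjamini-Hochberg adjustment over all probe sets. Scripts were tested on simulated data. An exact rank test cannot go below 0.1 with 3 against 3 and 0.2 with 3 against 2, so none was used. The methods' t-test, other normalizations, filters and leaving out each rat were alternatives. Named genes were the 10 genes, up to 5 called genes a list with the largest change, every E2f, Ccnd, Ccne and Cdkn gene, and the 5 genes most like the 9. The genes, lists and tests were chosen with earlier results of these data known. Ccnd1, Ccnd2, Prim1, Timeless and Top2a were also tested for the difference between compounds. No protein sequences were used here.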

Additional observations from a re-analysis of the deposited data

Results flagged for a closer look

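The ANIT effect differed from the APAP effect by the test of the difference itself in 7 genes. The differences in log2 change were 0.94 in Mcm2, 0.86 in Mcm3, 1.89 in Mcm4, 0.80 in Mcm5, 2.18 in Mcm6, 1.16 in Rrm1 and 1.03 in Tyms. The Mcm3 call was lost in 8 of the 12 fits that left out 1 rat. Between ANIT and MDA the difference passed in Mcm4 alone of the 9 genes, at 1.04. In that gene every ethanol rat stood above every other vehicle rat (share of all genes not computed). Whether this bears on the difference was not tested.

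The probe sets that name both Rrm2l1 and Rrm2 stood outside the counts and rose under ANIT, the brighter by 3.04 and the dimmer by 2.18 on the log2 scale, above the level in the control rats. Groups of 3 are too small for a test of single outlying samples.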

How the results depend on the processing

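No paired analysis was possible because treated and vehicle rats are not the same animals and replicate numbers only follow sample order. The count of genes called under ANIT, 7 of 9, became 4 of 6 without the dimmest 25% of probe sets, which removes Mcm4, Mcm6 and Tyms, and 3 by the methods' t-test with adjusted p, and ran from 6 to 7 without 1 rat. The MDA count, 3, became 1 by the adjusted t-test and ran from 2 to 4 without 1 rat. For ANIT minus MDA, 1 gene became 0 with these left out, and by the adjusted t-test, 2 with all 8 groups in 1 fit, and 0 to 1 without 1 rat. Without the 3 arrays of lower top value it was also 0, in a fit that keeps a lone ANIT rat, assumed to vary like the other groups, and so says nothing about stability. For ANIT minus APAP, 7 became 4 with the dimmest 25% left out and ran from 6 to 8 without 1 rat. The APAP, DCLF and vehicle counts were 0 in every alternative run. Over all genes the adjusted t-test called 91 higher and 67 lower under ANIT and 148 and 91 under MDA, against 546 and 480, and 697 and 601, by limma.

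Of 787 values of single genes under an alternative, 737 kept direction and side of the threshold, 38 lost the call, 8 gained it and 4 changed sign. The 787 include values that were not called and could not lose a call. Most losses were in Mcm4 for ANIT minus MDA (12 of 22 alternatives), Mcm3 for ANIT minus APAP (9 of 23) and Mcm3 under ANIT (6 of 17). The sign changes were in values that were not called: without 1 rat, Mcm7 under MDA ran from -0.05 to 0.10 (below 0 without ethanol replicate 1 and MDA replicates 2 and 3), and Tyms under DCLF ran from -0.044 to 0.56 (below 0 without water replicate 1). The cause was not tested. The 3 removed genes have dim probe sets, and the arrays limit what can be said of their absolute levels.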
